A study of Mus musculus with 15 samples.

Results

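The 33 genes described here code for enzymes and regulators of cholesterol and fatty acid synthesis, chosen by symbol from the gene names of the batch 1 and batch 2 tables, and all 33 were among the 13842 genes tested in batch 1 and the 13063 tested in batch 2. They fall into 18 sterol enzymes, from Acat2 to Dhcr7, 5 regulators and transport genes (Srebf1, Srebf2, Insig1, Insig2 and Stard4) and 10 genes of the fatty acid branch, from Acly to Fads2. They were measured by RNA sequencing in 15 libraries of cultured satellite cells, the stem cells of skeletal muscle, taken from mouse hindlimb muscle and grown in F10 medium with horse serum. In batch 1, 3 libraries came from cells given DMSO and 3 from cells given 0.05 mM adenosine for 24 hours. In batch 2, whose strain is labelled C57BL/6J, 3 libraries each came from cells given DMSO, 0.1 mM adenosine or 0.25 mM AMP, the 5′ phosphate of adenosine, for 24 hours. The labels give no strain for batch 1 and no age or genotype. They do not say if replicates are separate animals or cultures, so every p-value here reflects the spread among 3 libraries per group, and that spread may be technical only. The series title names the question of how extracellular purine nucleotides affect muscle regeneration in diabetic mice, whereas the labels of these cells mention no diabetes.

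Cholesterol is built from acetyl-CoA through the mevalonate pathway, squalene and lanosterol, and fatty acids are built from the same acetyl-CoA by acetyl-CoA carboxylase and fatty acid synthase and then lengthened and desaturated. Most genes of both branches are known targets of the sterol regulatory element binding proteins, transcription factors encoded by Srebf1 and Srebf2, which the INSIG proteins hold in the endoplasmic reticulum while sterols are plentiful. Dividing cells need both kinds of lipid for new membrane.

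RefSeq promoters of GRCm38.p6, which run from 250 bases before to 50 bases after a gene's start, were at hand for 26 of the 33 genes, with 33 promoters in all since a gene can have several, and a gene was counted where any of its promoters held a motif. A CCAAT box, CCAAT on either strand, was present in 22 of the 26 against 41.1% of the 27025 genes of the promoter table. A GC box, GGGCGG on either strand, was present in 21 of 26 against 38.2%. The sterol regulatory element in the form TCACNCCAC, searched on both strands, was present in 1 of 26, that of Hmgcs1, against 1.44% of all genes. The E-box CACGTG was present in 5 (Dhcr7, Elovl5, Hsd17b7, Insig1 and Sc5d) against 8.09%. By branch, the CCAAT box was in 14 of 15 sterol enzyme genes and 4 of 7 genes of the fatty acid branch, and the GC box in 14 of 15 and 3 of 7. A match is a run of letters and not a shown binding site, and the share of all genes is not matched for base composition. The sequences before the start of 4 genes are shown because Hmgcs1 held the sterol element, Insig1 and Insig2 moved in opposite directions, and Elovl6 had the largest fall, with capitals for any of the 4 motifs.
Hmgcs1 (chr13:119690101-119690350, plus strand): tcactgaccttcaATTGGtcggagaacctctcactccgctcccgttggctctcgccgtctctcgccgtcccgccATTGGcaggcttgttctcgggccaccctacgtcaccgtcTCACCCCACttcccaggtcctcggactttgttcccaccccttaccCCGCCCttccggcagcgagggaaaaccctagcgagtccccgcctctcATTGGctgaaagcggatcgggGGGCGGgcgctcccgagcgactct
Insig1 (chr5:28071162-28071362, plus strand): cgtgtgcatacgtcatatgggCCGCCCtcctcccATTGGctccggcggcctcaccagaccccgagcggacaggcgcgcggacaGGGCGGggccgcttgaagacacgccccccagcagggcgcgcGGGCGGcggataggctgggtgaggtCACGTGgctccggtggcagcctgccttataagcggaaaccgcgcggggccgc
Insig2 (chr1:121332590-121332839, minus strand): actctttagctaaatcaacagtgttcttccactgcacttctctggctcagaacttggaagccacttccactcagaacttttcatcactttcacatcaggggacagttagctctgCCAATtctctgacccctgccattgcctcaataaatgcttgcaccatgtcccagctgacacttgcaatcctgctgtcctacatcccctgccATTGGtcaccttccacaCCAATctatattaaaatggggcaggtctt
Elovl6 (chr3:129532136-129532354, plus strand): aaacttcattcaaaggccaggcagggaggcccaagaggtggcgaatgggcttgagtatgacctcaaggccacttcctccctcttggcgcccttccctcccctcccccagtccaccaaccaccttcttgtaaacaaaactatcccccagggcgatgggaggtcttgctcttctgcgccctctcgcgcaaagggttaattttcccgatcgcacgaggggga
Elovl6 held none of the 4 motifs in this window, and the stretch of Insig2 held CCAAT boxes but no GC box, E-box or sterol element, while another promoter of Insig2 held GC boxes.

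Levels are given as scaled CPM, counts relative to the library total after TMM scaling, which evens out libraries whose RNA composition differs, and differences as log2 fold changes from edgeR's quasi-likelihood test. A gene rose or fell where the adjusted p was under 0.05. Depth ranged from 14683346 to 20799588 counts per library in batch 1, and from 11107450 to 14201933 in batch 2. With adenosine in batch 1, 24 of the 33 fell, 1 rose and 8 were not called, while 39.2% of all tested genes were called (19.5% lower, 19.6% higher). With adenosine in batch 2, 30 fell, 1 rose and 2 were not called, against 69.4% of all genes (34.5% lower, 34.9% higher). With AMP, 31 fell, 1 rose and 1 was not called, against 65.6% (31.8% lower, 33.7% higher). The treated and DMSO libraries did not overlap for 23, 31 and 32 of the 33 genes in these comparisons, against 51.4%, 73.6% and 70.5% of all tested genes. The median log2 fold change of the 33 was -0.68, -0.98 and -1.03 in these comparisons, and that of all tested genes was 0.03, 0.01 and 0.01. Both batch 2 comparisons share the same 3 DMSO libraries. Scaling to library totals without TMM factors moved the median of all genes to 0.23, 0.32 and 0.28 and the share of calls that were higher from 50.1%, 50.3% and 51.4% to 67.4%, 68.7% and 69.9%, so that the falls below are smaller on that scale.

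**Figure D1:**
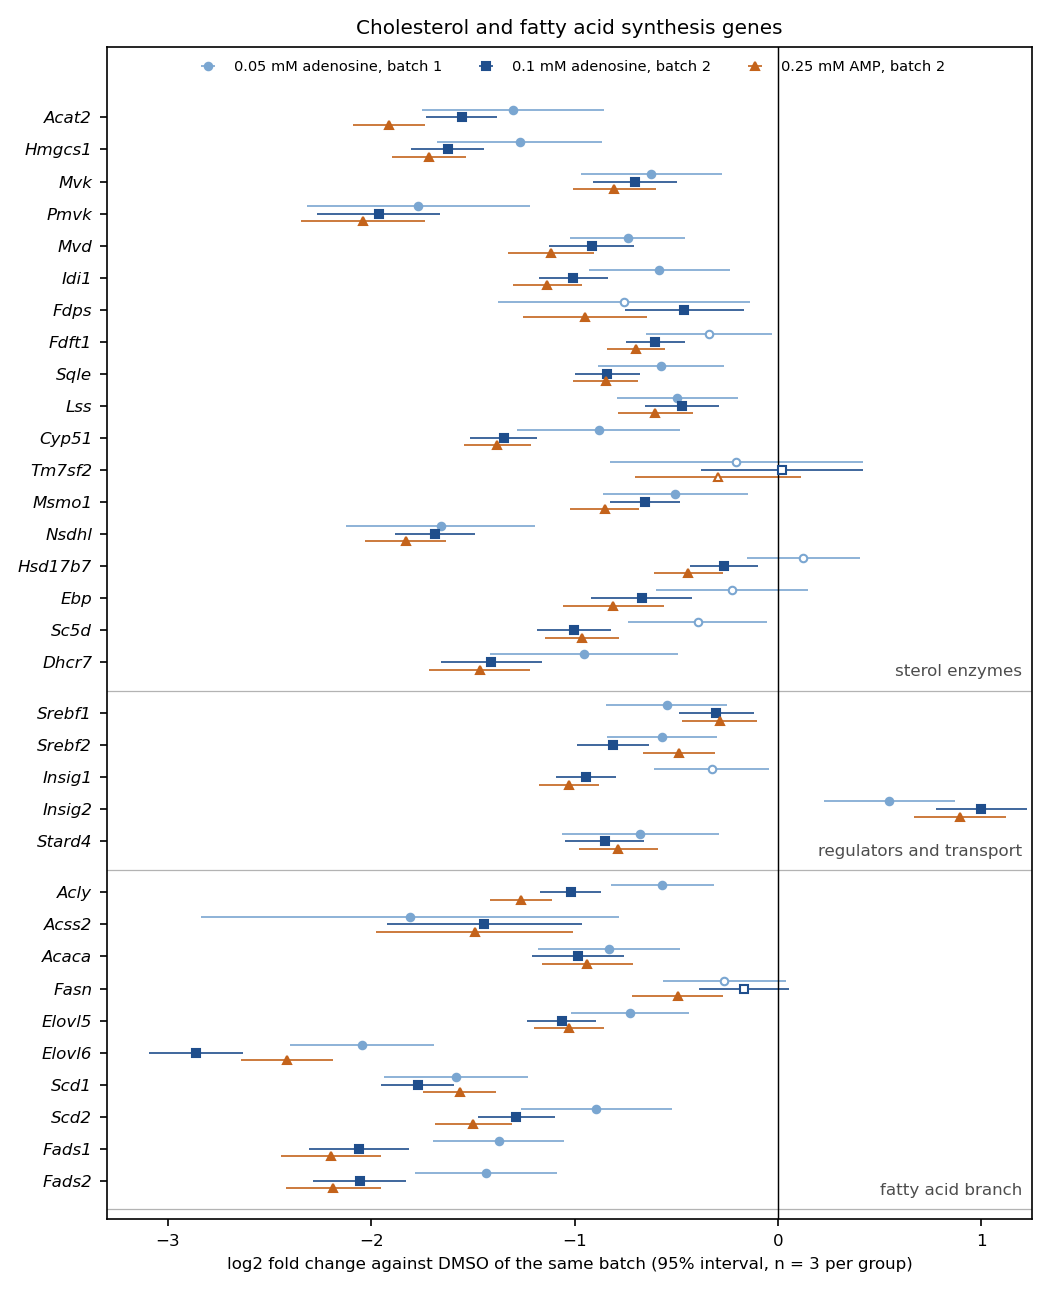
Log2 fold change (x axis) of each of the 33 genes (y axis) against the DMSO libraries of the same batch, with 95% intervals from edgeR and n = 3 libraries per group. Filled symbols had an adjusted p under 0.05; Insig2 alone lies right of 0 with filled symbols, at 0.55, 1.00 and 0.90.

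The first enzymes of the sterol branch make the isoprenoid units of cholesterol, and 6 of these 7 genes, from Acat2 to Fdps, fell in batch 1 and all 7 with both compounds in batch 2. Hmgcs1, the synthase that makes HMG-CoA, had the highest level per kilobase of transcript of the 33 genes in every group but batch 1 adenosine, where Fdft1 and Insig1 were above it. In batch 1 it stood at 486, 467 and 317 scaled CPM with DMSO and at 172, 218 and 137 with adenosine, a difference of -1.27 on the log2 scale (SE 0.19, adjusted p = 0.000214). In batch 2 it stood at 593, 640 and 597 with DMSO, 185, 217 and 191 with adenosine and 179, 207 and 172 with AMP. The treated libraries lay below all DMSO libraries of their batch, and the batch 2 log2 fold changes were -1.62 (SE 0.09, adjusted p = 3.21e-10) with adenosine and -1.72 (SE 0.09, adjusted p = 3.30e-10) with AMP. The DMSO libraries of batch 1 were less alike than those of batch 2, and replicate 3 was the lowest of them for Hmgcs1 and for most sterol enzymes.

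Pmvk, the phosphomevalonate kinase, had the largest fall of the sterol enzymes in each comparison with DMSO. It went from 53.9, 40.1 and 37.7 to 16.02, 14.9 and 7.84 scaled CPM in batch 1, and from 62.5, 67.0 and 59.2 to 14.8, 19.6 and 13.8 with adenosine and 14.9, 17.9 and 13.1 with AMP in batch 2. Its log2 fold changes were -1.77 (SE 0.25, adjusted p = 0.000169), -1.96 (SE 0.14, adjusted p = 9.38e-09) and -2.04 (SE 0.14, adjusted p = 1.13e-08). Acat2, the cytosolic thiolase that joins 2 acetyl-CoA units, fell by 1.30, 1.55 and 1.91 on the log2 scale. In batch 2 it had 258, 264 and 262 scaled CPM with DMSO, 78.7, 99.8 and 88.0 with adenosine and 66.9, 70.0 and 70.9 with AMP, so the 3 groups did not overlap. The falls of Mvk, Mvd and Idi1, which code for mevalonate kinase, mevalonate diphosphate decarboxylase and the isopentenyl diphosphate isomerase, were smaller, with log2 fold changes of -0.62, -0.74 and -0.58 in batch 1, -0.70, -0.92 and -1.01 with adenosine in batch 2, and -0.80, -1.12 and -1.13 with AMP. Fdps, the farnesyl diphosphate synthase, was low, at 22.3 ± 7.73 scaled CPM with DMSO in batch 1 (SD, n = 3). It was not called there (-0.76, adjusted p = 0.052) and fell by 0.46 with adenosine and 0.95 with AMP in batch 2.

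**Figure D2:**
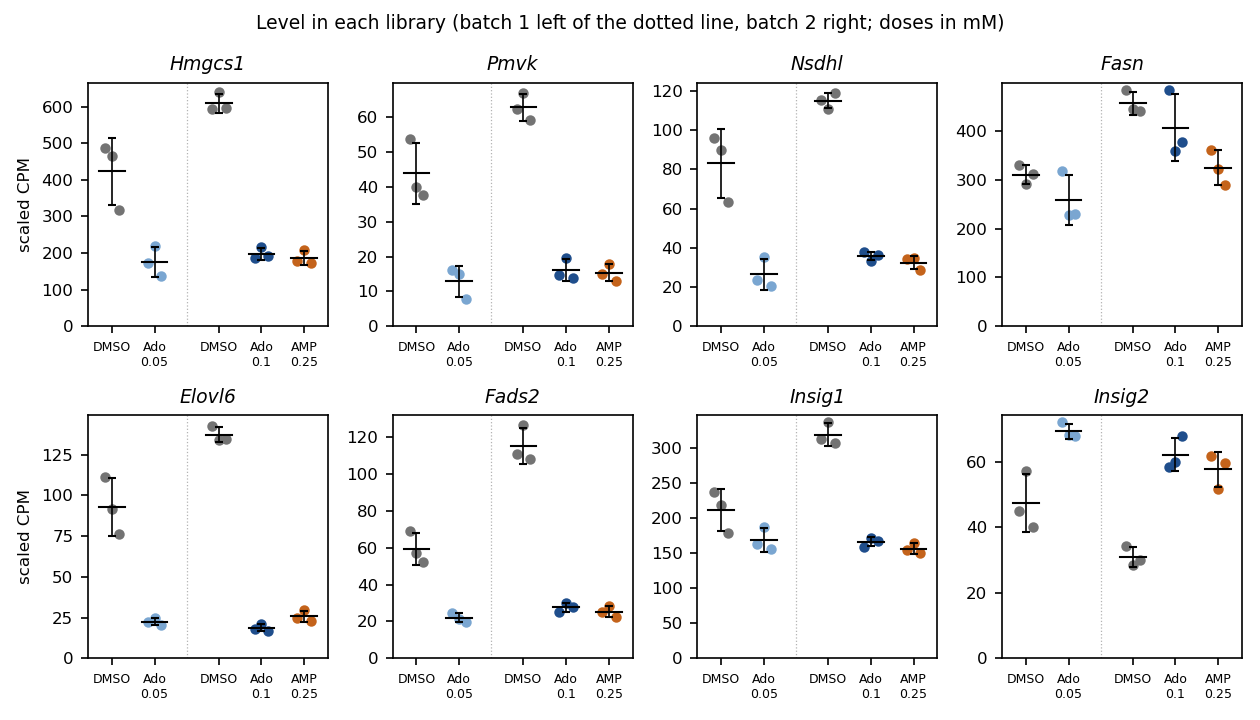
Scaled CPM (y axis, from 0) of 8 genes in each of the 15 libraries (points) by group (x axis, doses in mM), with the mean and SD of 3 libraries. Treated libraries of Hmgcs1, Pmvk, Nsdhl, Elovl6 and Fads2 lie below every DMSO library of their batch, those of Insig2 above. Those of Fasn overlap them with adenosine in both batches and those of Insig1 in batch 1.

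From Fdft1, whose enzyme makes squalene, to Dhcr7, 6 of 11 enzyme genes fell in batch 1 and 10 of 11 fell with each compound in batch 2. Nsdhl, a dehydrogenase of the C4 demethylation of sterols that lies on the X chromosome, fell most among them. It had 96.2, 90.1 and 63.2 scaled CPM with DMSO and 23.5, 35.3 and 20.3 with adenosine in batch 1, and in batch 2 it had 116, 111 and 119 with DMSO, 37.9, 33.5 and 36.1 with adenosine and 34.2, 34.7 and 28.5 with AMP. These are log2 fold changes of -1.66 (SE 0.22, adjusted p = 8.38e-05), -1.69 (SE 0.09, adjusted p = 5.08e-10) and -1.83 (SE 0.09, adjusted p = 3.96e-10), and no treated library reached the level of a DMSO library. Dhcr7, which catalyses the last step of cholesterol synthesis in one route, fell by 0.95, 1.41 and 1.47 on the log2 scale. Cyp51, the lanosterol demethylase, fell by 0.88, 1.35 and 1.38. Sqle, the squalene epoxidase and a control point of the pathway, fell by 0.57, 0.84 and 0.85, from 344 ± 41.5 to 231 ± 40.9 scaled CPM in batch 1 and from 365 ± 6.77 to 204 ± 8.01 with adenosine and 203 ± 19.1 with AMP in batch 2 (SD, n = 3).

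Lss, the lanosterol synthase, and Msmo1, the C4 methylsterol oxidase, also fell in all 3 comparisons, with log2 fold changes of -0.50, -0.47 and -0.60 for Lss and -0.51, -0.65 and -0.85 for Msmo1. The groups overlapped for Msmo1 in batch 1, where the highest adenosine library (323 scaled CPM) exceeded the lowest DMSO library (295). Fdft1, the squalene synthase, Ebp, the sterol isomerase, and Sc5d, the sterol desaturase, were not called in batch 1, with log2 fold changes of -0.34, -0.23 and -0.39. In batch 2 Fdft1 fell by 0.60 with adenosine and 0.70 with AMP, Ebp fell by 0.67 and 0.81, and Sc5d fell by 1.00 and 0.96. Without DMSO replicate 3 of batch 1, Fdft1 and Sc5d were called lower there as well, as were Fdps and Insig1, which took the count of sterol enzymes that fell from 12 to 15. Fdps and Insig1 were also called without adenosine replicate 2 of batch 1. With no filter on low counts, Fdps, Fdft1, Sc5d and Insig1 were called lower on all 6 libraries of batch 1. Their adjusted p by edgeR were then 0.00412, 0.0272, 0.0112 and 0.0326. Fdps was called in batch 1 with the DESeq2 Wald test (adjusted p = 0.0299) and with the replicate number as a block (adjusted p = 0.0152) as well. Idi1, Msmo1 and Stard4 lost their batch 1 call without DMSO replicate 1. The call of Msmo1 also depended on DMSO replicate 2 and on adenosine replicates 1 and 3, since leaving out any of them ended it. Fdft1 overlaps Ctsb on the opposite strand and Cyp51 overlaps Akap9. The counting of batch 1 did not use strand, and that of batch 2 is not known.

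Tm7sf2 and Hsd17b7 stood apart from the other sterol enzymes. Tm7sf2, a sterol C14 reductase, was low, at 12.9 ± 1.96 scaled CPM with DMSO, 13.0 ± 1.53 with adenosine and 10.5 ± 2.45 with AMP in batch 2, and was called in no comparison. Its 95% intervals ran from -0.83 to 0.42 in batch 1, from -0.38 to 0.42 with adenosine and from -0.70 to 0.11 with AMP in batch 2. Its gene body overlaps that of Vps51 on the same strand by 532 bases, and Vps51 had 4258 counts over the batch 1 libraries against 840 for Tm7sf2. Hsd17b7, the sterol C3 ketoreductase, was at 111, 110 and 87.8 scaled CPM with DMSO and 105, 119 and 113 with adenosine in batch 1, a log2 fold change of 0.13 with a 95% interval of -0.15 to 0.40 (adjusted p = 0.466). In batch 2 it had 128, 136 and 139 with DMSO, 116, 105 and 115 with adenosine and 105, 103 and 89.1 with AMP. The batch 2 differences of -0.26 (adjusted p = 0.00774) and -0.44 (adjusted p = 0.000176) depended on the scaling, since library totals gave 0.04 with adenosine and no call with either compound.

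Among the regulators, Insig2 rose in all 3 comparisons while its paralog Insig1 fell in batch 2. Insig2 stood at 45.02, 57.3 and 40.1 scaled CPM with DMSO and at 72.1, 68.3 and 67.9 with adenosine in batch 1. In batch 2 it stood at 34.3, 28.5 and 30.2 with DMSO, 58.6, 60.1 and 68.0 with adenosine and 62.0, 51.8 and 59.7 with AMP. All treated libraries exceeded all DMSO libraries of their batch, with log2 fold changes of 0.55 (SE 0.15, adjusted p = 0.011), 1.00 (SE 0.11, adjusted p = 5.31e-07) and 0.90 (SE 0.11, adjusted p = 2.45e-06). Insig1, whose own transcription is known to follow the sterol regulatory element binding proteins, had 237, 219 and 179 scaled CPM with DMSO and 162, 188 and 156 with adenosine in batch 1, where the groups overlapped and the difference of -0.33 was not called (adjusted p = 0.0652). In batch 2 it fell from 313, 337 and 306 to 159, 172 and 167 with adenosine and 154, 165 and 151 with AMP, by 0.94 (adjusted p = 1.13e-08) and 1.03 (adjusted p = 7.65e-09) on the log2 scale. Per kilobase of transcript, Insig1 stood at 103 ± 5.22 and Insig2 at 8.93 ± 0.86 scaled CPM with DMSO in batch 2, and at 53.7 ± 2.06 and 17.9 ± 1.45 with adenosine. Gm37174, on the opposite strand of Insig2, had 159 counts in batch 1 against 5819 for Insig2, and the counting of batch 1 did not use strand.

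The genes of both transcription factors fell in each comparison with TMM scaling. Srebf2, whose protein is known mainly for sterol genes, fell by 0.57 (adjusted p = 0.00319) in batch 1, and by 0.81 with adenosine and 0.49 with AMP in batch 2. It had 367, 367 and 345 scaled CPM with DMSO in batch 2, 221, 204 and 190 with adenosine and 263, 280 and 226 with AMP, so that the AMP libraries lay between the others with no overlap. Srebf1, whose protein is known mainly for fatty acid genes, fell by 0.55 (adjusted p = 0.00714) in batch 1, from 130, 121 and 143 to 103, 92.0 and 74.9 scaled CPM. The batch 2 values of Srebf1, 80.2, 90.1 and 92.0 with DMSO, 69.0, 71.8 and 71.7 with adenosine and 76.6, 74.6 and 63.8 with AMP, gave differences of -0.30 and -0.29 that passed the threshold with TMM scaling, while library totals gave 0.0075 with adenosine and no call in any of the 3 comparisons. Stard4, a carrier of cholesterol between membranes, fell by 0.68, 0.85 and 0.79.

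In the fatty acid branch, 9 of 10 genes fell with adenosine in each batch and all 10 with AMP. Elovl6, the elongase that turns palmitate into stearate, had the largest fall of the 33 genes in each comparison. Its levels were 111, 91.5 and 76.2 scaled CPM with DMSO and 22.0, 25.03 and 20.5 with adenosine in batch 1, and 143, 134 and 135 with DMSO, 18.3, 21.3 and 17.1 with adenosine and 24.6, 29.7 and 23.0 with AMP in batch 2. The groups were far apart, with log2 fold changes of -2.05 (SE 0.16, adjusted p = 2.46e-06), -2.86 (SE 0.11, adjusted p = 1.31e-11) and -2.41 (SE 0.11, adjusted p = 1.17e-10), which are 4.13-fold, 7.27-fold and 5.33-fold lower. Elovl5, which lengthens polyunsaturated fatty acids, fell by 0.73, 1.06 and 1.03.

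Fads1 and Fads2, the delta-5 and delta-6 desaturases of polyunsaturated fatty acids, are neighbours on chromosome 19 and fell by nearly the same amount. Fads1 fell by 1.37, 2.06 and 2.20 on the log2 scale and Fads2 by 1.43, 2.06 and 2.19. In batch 2 Fads1 had 145, 167 and 150 scaled CPM with DMSO, 36.8, 37.1 and 36.9 with adenosine and 33.1, 40.7 and 27.0 with AMP. Fads2 had 111, 127 and 108 with DMSO, 25.1, 30.0 and 27.8 with adenosine and 25.3, 28.5 and 22.2 with AMP, so for both genes every treated library lay far below the DMSO libraries. Scd1 and Scd2, which introduce the first double bond into saturated fatty acids, are also neighbours on chromosome 19. Scd2 was the more abundant of the pair, at 128 ± 2.23 against 40.4 ± 0.95 scaled CPM per kilobase with DMSO in batch 2. Scd1 fell by 1.58, 1.77 and 1.57 and Scd2 by 0.89, 1.29 and 1.50. Any near-identical stretches of these paralogs could move reads between them or drop reads from both, which was not tested.

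Acly, Acss2, Acaca and Fasn supply acetyl-CoA and build the chain. Acly, which splits citrate into acetyl-CoA for both branches, fell by 0.57 (adjusted p = 0.00228) in batch 1, from 413, 372 and 322 to 248, 253 and 247 scaled CPM, and by 1.02 and 1.26 in batch 2. Acaca, the acetyl-CoA carboxylase that commits acetyl-CoA to fatty acids, fell by 0.83, 0.98 and 0.94. Acss2, which makes acetyl-CoA from acetate, was the least abundant per kilobase of the 33 and fell by 1.81 (SE 0.47), 1.44 (SE 0.22) and 1.49 (SE 0.23). In batch 1 its libraries had 9.73, 14.98 and 4.18 scaled CPM with DMSO and 2.13, 4.38 and 1.71 with adenosine, so the groups overlapped, and without DMSO replicate 2 the difference was not called (-1.35, adjusted p = 0.0536). It overlaps Gss on the opposite strand, which had 7134 counts over the batch 1 libraries against 605 for Acss2. Fasn, the fatty acid synthase, was the exception. In batch 1 its levels were 330, 291 and 312 scaled CPM with DMSO and 318, 229 and 231 with adenosine, and in batch 2 they were 484, 445 and 442 with DMSO, 485, 359 and 379 with adenosine and 361, 323 and 290 with AMP. Replicate 1 of each adenosine group lay within the range of its DMSO libraries or above it, and the differences of -0.26 (95% interval -0.56 to 0.04, adjusted p = 0.156) and -0.17 (95% interval -0.39 to 0.06, adjusted p = 0.169) were not called. Without adenosine replicate 1 of its batch, Fasn was called lower, at -0.47 (adjusted p = 0.00766) in batch 1 and -0.31 (adjusted p = 0.00772) in batch 2, and with library totals its batch 2 difference with adenosine was 0.14. Replicate 1 had the highest Fasn level in each of the 5 groups. With the replicate number as a block, Fasn was called lower with adenosine in batch 2 (-0.18, adjusted p = 0.0461). With AMP it fell by 0.49 (SE 0.11, adjusted p = 0.000721), and no AMP library reached a DMSO library.

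The fatty acid branch had the lower median in each comparison with DMSO. The median log2 fold change was -0.60 for the 18 sterol enzymes and -1.13 for the 10 genes of the fatty acid branch in batch 1, -0.88 and -1.36 with adenosine in batch 2, and -0.96 and -1.49 with AMP. Taken library by library against the DMSO mean of the batch, the median of the fatty acid branch was below that of the sterol enzymes in 9 of the 9 treated libraries. The difference was -0.49, -0.47 and -0.51 in the 3 adenosine libraries of batch 1, -0.24, -0.58 and -0.71 in those of batch 2, and -0.53, -0.35 and -0.40 with AMP. In the DMSO libraries it was -0.02, -0.06 and 0.09 in batch 1 and 0.06, -0.04 and -0.04 in batch 2. The branches hold few genes, chosen with earlier results of these data known, and no test of the difference was made. Summed over its genes, the sterol branch went from 2843 ± 468 to 1755 ± 287 scaled CPM in batch 1 and from 3793 ± 36.9 to 1897 ± 22.9 with adenosine and 1747 ± 122 with AMP in batch 2, and the fatty acid branch from 1683 ± 191 to 978 ± 87.7, and from 2541 ± 72.7 to 1219 ± 56.04 and 1071 ± 86.9 (SD, n = 3). The sums of both branches thus changed by similar proportions. Acly, Fasn and Scd2 were the fatty acid genes with the most counts. Without Acly and Acss2, which supply both branches, the fatty acid median was -1.13, -1.53 and -1.53. Without Acss2 alone, its least abundant gene, it was -0.89, -1.29 and -1.50. This brings it closer to the sterol median with adenosine in both batches, more so in batch 1, and not with AMP. With Stard4, Insig1 and Srebf2 added the sterol median was -0.58, -0.85 and -0.95.

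**Figure D3:**
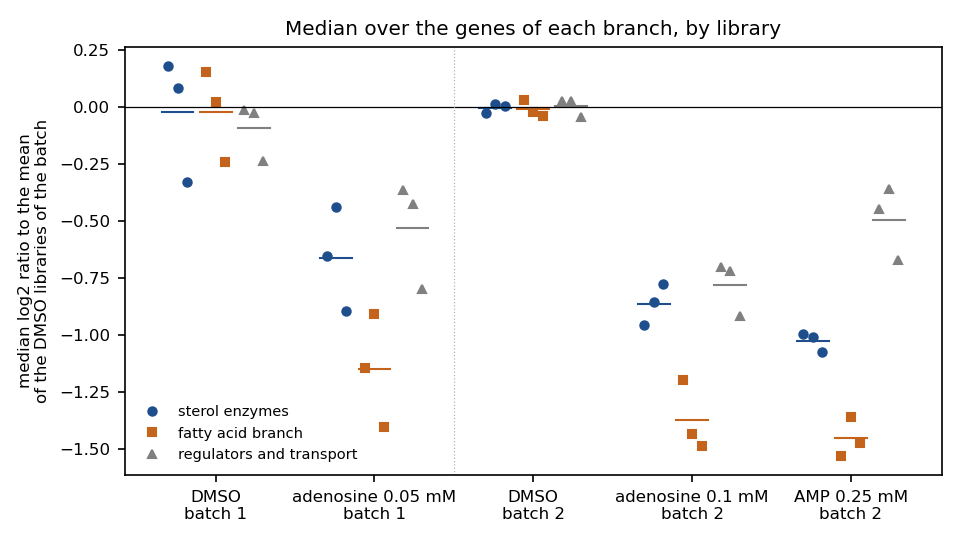
Median over the genes of each branch of the log2 ratio to the mean of the DMSO libraries of the batch (y axis), for each library (points) by group (x axis), with lines at the mean of 3 libraries. The fatty acid branch lies below the sterol enzymes in all 9 treated libraries, and the 3 DMSO libraries of batch 1 spread more than those of batch 2.

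AMP and adenosine were compared directly in batch 2, although at different doses, 0.25 and 0.1 mM, so that compound and dose cannot be told apart. Of the 33 genes, 1 was lower with AMP, 2 were higher and 30 were not called, against 6.51% of all genes called (2.00% lower, 4.52% higher). The AMP and adenosine libraries did not overlap for 7 of the 33, against 23.6% of all genes. Acat2 was lower with AMP by 0.36 (SE 0.08, adjusted p = 0.0154), Srebf2 was higher by 0.32 (SE 0.08, adjusted p = 0.0308) and Elovl6 was higher by 0.45 (SE 0.11, adjusted p = 0.0257). These 3 calls were each lost without some single library of the comparison. Acat2 was not called without adenosine replicate 2 or 3 or AMP replicate 1, with adjusted p from 0.0532 to 0.0776. Srebf2 was not called without adenosine replicate 2 or 3 or AMP replicate 1 or 2, with adjusted p from 0.0788 to 0.156. Elovl6 was not called without adenosine replicate 1 or 3 or AMP replicate 2, with adjusted p from 0.0643 to 0.133. When only the 6 libraries compared were fitted, Acat2 was called and Srebf2 (adjusted p = 0.068) and Elovl6 (adjusted p = 0.0909) were not. Fdps (-0.49, adjusted p = 0.0551), Acly (-0.24, adjusted p = 0.0541) and Fasn (-0.33, adjusted p = 0.0805) lay just outside the threshold. All 3 were called lower with AMP when the replicate number was added as a block (adjusted p = 0.0332, 0.0433 and 0.0116) and with the DESeq2 Wald test (adjusted p = 0.0305, 0.0139 and 0.0308). The 95% interval of the difference was -0.27 to 0.09 for Hmgcs1, the sterol gene with the highest level per kilobase, -0.40 to 0.24 for Pmvk and -0.39 to 0.11 for Fads1, so small differences between the compounds are not excluded for them.

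The adenosine effect was larger in batch 2, at 0.1 mM, than in batch 1, at 0.05 mM, for 6 of the 33 genes by the test of the interaction over all 15 libraries, while 11.9% of the 13057 genes tested in both batches differed (5.65% lower, 6.27% higher). Elovl6 fell by a further 0.81 (SE 0.19, adjusted p = 0.0102) in batch 2 and Insig1 by a further 0.61 (SE 0.14, adjusted p = 0.00891). Fads1 (-0.68, adjusted p = 0.0238), Fads2 (-0.62, adjusted p = 0.0332), Acly (-0.45, adjusted p = 0.0238) and Sc5d (-0.60, adjusted p = 0.032) also differed, and none of the 33 differed in the other direction. The median difference was -0.26 for the sterol enzymes and -0.36 for the fatty acid branch, against 0.0005 for all genes tested. Elovl6 and Insig1 kept the call under every alternative run. Fads1 lost it without DMSO replicate 2 of batch 2 or adenosine replicate 2 of batch 1. Acly lost it without DMSO replicate 2 of batch 1 or any of DMSO replicates 1 to 3 and adenosine replicates 1 and 3 of batch 2, and so did Fads2, which also lost it without DMSO replicate 3 or adenosine replicate 1 of batch 1. Sc5d lost it without DMSO replicate 2 or 3 or adenosine replicate 2 or 3 of batch 1, or any one library of batch 2 in the comparison. The tables were made separately and dose and batch changed together, so they cannot be told apart. In the fits reported, 24 shared genes were called lower in both batches. A further 6 (Ebp, Fdft1, Fdps, Hsd17b7, Insig1 and Sc5d) passed in batch 2 alone, and Fasn and Tm7sf2 passed in neither. Of these 6, Fdps, Fdft1, Sc5d and Insig1 were also called lower in batch 1 with no filter on low counts.

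**Figure D4:**
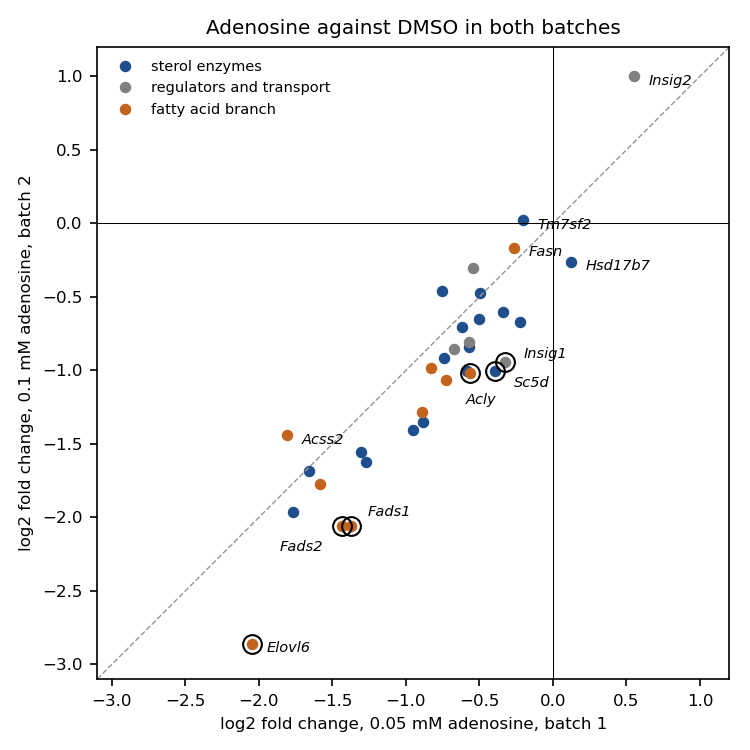
Log2 fold change with 0.1 mM adenosine in batch 2 (y axis) against that with 0.05 mM adenosine in batch 1 (x axis), 1 point per gene, with the dashed line of equal change. Circled points are the 6 genes whose effect differed between batches, from Acly at -0.45 to Elovl6 at -0.81.

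Genes around these branches were not uniformly lower. Of 17 other sterol pathway genes, 2 rose and 3 fell in batch 1, 4 rose and 8 fell with adenosine in batch 2, and 4 rose and 7 fell with AMP, with medians of -0.11, -0.09 and -0.16. Mylip, the ubiquitin ligase that removes the LDL receptor, rose from 4.52 ± 0.475 to 20.8 ± 2.98 scaled CPM in batch 1 and from 1.47 ± 0.526 to 25.1 ± 5.83 with adenosine and 17.9 ± 4.26 with AMP in batch 2. Of 13 genes of isoprenoid side branches, 2 rose and 3 fell in batch 1, 2 rose and 6 fell with adenosine in batch 2, and 2 rose and 5 fell with AMP. Among them was Fntb, a farnesyltransferase subunit, which fell by 2.12, 2.37 and 1.82 in the 3 comparisons.

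Among 12 genes of citrate export, NADPH and acyl-CoA supply, 3 rose and 3 fell in batch 1 and 5 rose and 6 fell with adenosine in batch 2, and 4 rose and 7 fell with AMP. The malic enzyme gene Me1, a source of NADPH for lipid synthesis, rose by 1.40, 1.09 and 0.72, and Acsl4, an acyl-CoA synthetase, fell by 1.18, 1.85 and 1.67. Of the other elongation and desaturation genes, 6 of 14 tested rose and 4 fell in batch 1, 5 of 13 rose and 5 fell with adenosine in batch 2, and 2 rose and 4 fell with AMP. Elovl1, an elongase of very long chains, fell by 1.46, 1.69 and 1.51. Among 14 tested genes of glycerolipid synthesis, 4 rose and 2 fell in batch 1, 7 rose and 6 fell with adenosine in batch 2, and 6 of each with AMP. Dgat2, which makes triglyceride, rose from 24.7 ± 4.92 to 127 ± 8.54 scaled CPM in batch 1 and from 14.8 ± 2.37 to 67.9 ± 7.41 with adenosine and 55.3 ± 8.13 with AMP in batch 2. Among 16 tested genes of fatty acid oxidation, 4 rose and 4 fell in batch 1, 5 rose and 4 fell with adenosine in batch 2, and 4 rose and 5 fell with AMP. Acadvl, the very long chain acyl-CoA dehydrogenase, rose by 0.81, 1.49 and 1.21.

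Genes of cell division were much lower in the same treated libraries. All 8 listed genes fell in each comparison with DMSO, with medians of -5.64, -3.80 and -4.02. Mki67, a marker of cycling cells, was at 112, 31.1 and 26.6 scaled CPM with DMSO and 1.10, 0.63 and 0.44 with adenosine in batch 1, and at 97.5, 158 and 111 with DMSO, 5.09, 15.1 and 7.45 with adenosine and 3.20, 13.98 and 7.75 with AMP in batch 2. Its part in the falls of the lipid genes was not tested, and in bulk RNA fewer cells of a type and less RNA per cell cannot be told apart. Of the markers of the labelled cell type, Pax7 was at 63.3 ± 4.64 with DMSO and 56.8 ± 4.46 with adenosine in batch 1 and at 47.5 ± 3.88, 60.8 ± 1.66 and 73.1 ± 6.56 with DMSO, adenosine and AMP in batch 2. Sdc4 was at 1406 ± 137 with DMSO and 2031 ± 95.5 with adenosine in batch 1, and so higher with adenosine. In batch 2 it was at 1077 ± 8.80, 1305 ± 48.3 and 1246 ± 142 with DMSO, adenosine and AMP. Myod1 was lower in the treated groups, at 2934 ± 184 with DMSO and 1095 ± 219 with adenosine in batch 1 and at 1749 ± 223, 663 ± 31.0 and 840 ± 119 in the DMSO, adenosine and AMP groups of batch 2 (SD, n = 3). The means of Des, Chrna1, Itga7, Vcam1, Myf5, Cdh15 and the scarce Mymk were also lower in every treated group. However, treated and DMSO libraries overlapped for Mymk in each comparison and for Myf5 with AMP. In batch 2 Mymk was at 1.53 ± 0.92 with DMSO, 1.31 ± 1.14 with adenosine and 0.92 ± 0.89 with AMP. Myf5 was at 183 ± 19.3 with DMSO and 162 ± 9.10 with AMP. Des went from 1102 ± 98.6 to 310 ± 54.9 in batch 1. In batch 2 it went from 1641 ± 173 to 366 ± 41.4 with adenosine and 415 ± 82.9 with AMP. The summed level of the 10 satellite cell and myoblast markers was 7746 to 8124 scaled CPM with DMSO and 4101 to 5068 with adenosine in batch 1, and 6698 to 7606 with DMSO, 3105 to 3573 with adenosine and 3244 to 4278 with AMP in batch 2. Of 9 adipocyte markers, Adipoq, Plin1, Lep, Retn and Cfd were at 0 in all 3 DMSO libraries of batch 1, and the sum of all 9 was 12.5 to 18.6 with DMSO and 10.6 to 15.3 with adenosine, while in batch 2 it was 45.6 to 51.2 over the 2 markers listed there with DMSO, 19.2 to 22.8 with adenosine and 19.96 to 26.4 with AMP. Of these 2, Lpl was at 45.4 ± 2.77 with DMSO, 18.3 ± 1.01 with adenosine and 13.8 ± 2.78 with AMP, and Pparg at 2.51 ± 0.368, 2.68 ± 0.812 and 9.40 ± 1.06, so they moved in opposite directions with AMP. The summed leukocyte markers went from 1.41 to 3.17 with DMSO to 10.96 to 17.8 with adenosine in batch 1, most of it Cd68 (2.00 ± 0.766 and 12.1 ± 1.86), while Cd52 and Cd3e were at 0 in all 6 libraries and Ptprc was at 0.0225 ± 0.0389 and 0.574 ± 0.521. Over the 2 leukocyte markers listed in batch 2 the sum was 1.92 to 3.71 with DMSO, 11.5 to 14.2 with adenosine and 11.9 to 14.9 with AMP, again most of it Cd68. The summed smooth muscle and pericyte markers, nearly all of it Notch3, ranged over 53.7 to 88.1 with DMSO and 11.2 to 20.6 with adenosine in batch 1. In batch 2, where only Notch3 and Cspg4 are listed, they ranged over 47.0 to 50.8, 8.29 to 12.8 and 12.6 to 18.6 with DMSO, adenosine and AMP. Rgs5, Myh11 and Abcc9 were scarce in batch 1, at 0.18, 0.33 and 0.07 with DMSO and 0.14, 0.50 and 0.16 with adenosine. Pdgfrb went from 1.17 ± 0.23 to 2.56 ± 2.10, Cspg4 from 2.94 ± 1.35 to 0.95 ± 0.49 and Kcnj8 from 1.74 ± 0.86 to 0. The summed endothelial markers, most of it Tek, ranged over 5.69 to 8.70 and 18.3 to 23.7 in batch 1. In batch 2, where only Tek and Pecam1 are listed, they ranged over 2.32 to 6.04, 8.23 to 9.94 and 8.90 to 11.4. Tek went from 4.83 ± 1.03 to 16.8 ± 2.36 in batch 1. Pecam1, Cdh5, Kdr, Esam, Cldn5 and Emcn were scarce there, at 1.12, 0.33, 0.02, 0.31, 0.34 and 0.30 with DMSO. With adenosine they were at 1.72, 0.66, 0.47, 0.91, 0.44 and 0.64. The summed markers of fibro-adipogenic progenitors, most of them Cd34 and Gsn, ranged over 376 to 477 and 295 to 375 in batch 1. In batch 2 they ranged over 381 to 451, 274 to 278 and 355 to 429, and the AMP and DMSO libraries overlapped. Pdgfra, Ly6a, Lum and Pi16 were scarce in batch 1, at 0.38, 0.18, 0.38 and 0 with DMSO and 0.93, 0.83, 0.22 and 0.12 with adenosine. They are not listed in batch 2. Dcn went from 1.85 ± 0.37 to 3.22 ± 1.65 in batch 1 and Dpt from 16.7 ± 3.91 to 9.80 ± 1.43. Whether such cells were present was not tested, nor was their part in the lipid gene results.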

How the data were processed

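RNA sequencing of 15 libraries in 5 groups was used as deposited. Per the labels' protocols, total RNA was turned into cDNA by Smart-Seq2 and fragmented with Tn5. The submitters' processing notes name mm10, Trim Galore, STAR, Subread, featureCounts and DESeq2. Batch 1 was counted by featureCounts 1.6.4 with no option set for strand or multi-mapping reads, per the file headers. The settings used for batch 2 were not given in the sources used. Both deposited count tables hold raw counts, and the deposited FPKM values served only as an alternative (log2 with a pseudocount of 1 or 0.1). In batch 2, 43 lines named no gene (0.0589% of counts) and were left out, and the smallest total of a gene was 101 counts.

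Counts were tested with edgeR 4.0.16 in R 4.3.3 (TMM, filterByExpr, two-sided quasi-likelihood F test with 95% intervals, p-values adjusted by Benjamini-Hochberg over all tested genes): batch 1 on 6 libraries, batch 2 on 9, and the interaction of adenosine with batch on 15. Scaled CPM are CPM on the effective library size (total times TMM factor), given as mean ± SD. Alternatives were library totals, DESeq2 1.42.0 size factors and Wald test, other low-count filters, a replicate block, limma 3.58.1 on FPKM, only the 6 libraries compared, and leaving out each library. The scripts were tested on simulated data. The members, the gene lists and the rule for named genes (all members; of each other list the largest called rise and fall above 10 CPM) were chosen with earlier results of these data known. Where several genes of a list met the rule over the comparisons, only some are named, and some results are not reported here. Replicates differed by more than counting noise (chi-square per degree of freedom 3.54 to 34.4). Coordinates of promoters are from RefSeq, GRCm38.p6.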

Additional observations from a re-analysis of the deposited data

Results flagged for a closer look

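The effect of adenosine differed between the batches, by the test of the interaction, for 6 genes. The difference, batch 2 at 0.1 mM minus batch 1 at 0.05 mM, was -0.81 for Elovl6, -0.68 for Fads1, -0.62 for Fads2, -0.61 for Insig1, -0.60 for Sc5d and -0.45 for Acly on the log2 scale. Dose and batch cannot be told apart here. No group had 4 or more libraries, so single libraries were not screened for lying apart from their group.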

How the results depend on the processing

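With DMSO as the reference, 17 of 24 falls in batch 1, 26 of 30 with adenosine in batch 2 and 29 of 31 with AMP kept direction and call under every alternative in which the gene was tested, as did the rise of Insig2 in each. Acss2 is among the falls kept in batch 2, although the minimum mean of 10 CPM left it out. With library totals in place of TMM factors, the genes called lower went to 2891 with adenosine and 2605 with AMP in batch 2 and to 333 for the difference between batches, and in batch 1 Idi1, Sqle, Lss, Msmo1 and Srebf1 lost their call, as did Fdps and Lss with adenosine and Hsd17b7 and Srebf1 with AMP in batch 2. The sterol median then was -0.57 with adenosine and -0.69 with AMP, the fatty acid median -1.06 and -1.23, and Hsd17b7, Srebf1 and Fasn turned to 0.0443, 0.0075 and 0.14 with adenosine in batch 2; this follows from the scaling itself, which shifts every gene. On that scale 0 sterol enzymes and 1 gene of the fatty acid branch differed between batches. The fatty acid median was -0.87 in batch 1 with a minimum mean of 10 CPM, which leaves out Acss2. On log2(FPKM + 1) it was -0.81 in batch 1, -1.14 with adenosine and -1.37 with AMP in batch 2, and -1.40 with AMP on log2(FPKM + 0.1); a pseudocount shrinks low genes. Without Acly and Acss2 it was -1.53 with adenosine in batch 2. Leaving out Acss2 alone was an alternative chosen after seeing the data. The sterol median with AMP was -0.88 with a minimum of 10 CPM and -0.90 on log2(FPKM + 1).

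Between AMP and adenosine, the sterol enzymes called lower numbered 2 with the DESeq2 Wald test or a minimum of 10 CPM. Genes of the fatty acid branch called lower numbered 1 with library totals, DESeq2 size factors or a minimum of 10 CPM and 2 with the Wald test, and those called higher numbered 0 with library totals, on FPKM with either pseudocount, or on only the 6 libraries compared. All genes called higher numbered 376 and 363 on FPKM with pseudocounts of 1 and 0.1. The cause of these changes was not tested. The FPKM alternatives were not run for the difference between batches.

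Leaving out 1 library at a time, the sterol median with AMP ranged from -1.02 to -0.92. Between AMP and adenosine, 304 to 710 genes were called higher and 104 to 281 lower, with 0 to 2 sterol enzymes lower, 0 to 1 gene of the fatty acid branch lower and 0 to 1 higher. Between batches, 523 to 1035 genes were called higher and 375 to 1028 lower, with 0 to 2 sterol enzymes and 1 to 5 genes of the fatty acid branch lower. Tm7sf2 ranged from -0.37 to 0.0729 in batch 1 and from -0.0639 to 0.15 with adenosine in batch 2, with no call.

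Libraries of the same replicate number shared deviations only weakly, with correlations of -0.03 to 0.09 in batch 1 and -0.07 to 0.30 in batch 2. Pairs of different numbers had correlations of -0.17 to 0.11 in batch 1 and -0.25 to 0.14 in batch 2. The highest values in batch 2 came from pairs of the same number, so a pairing is not excluded there. The samples were treated as unpaired, with the block as an alternative. With the replicate number as a block, 13 sterol enzymes and 9 genes of the fatty acid branch fell in batch 1, 17 and 10 with adenosine and 17 and 10 with AMP in batch 2. Between AMP and adenosine 2 of each were lower with the block. The widest 95% intervals between AMP and adenosine belonged to Acss2 and Tm7sf2, genes of low counts.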

Other observations

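Of 7 tested genes of the liver X receptors, which are nuclear receptors for oxysterols, and of sterol efflux, 4 rose and 0 fell in batch 1, 4 rose and 1 fell with adenosine in batch 2, and 4 rose and 1 fell with AMP, with median log2 fold changes of 1.57, 2.17 and 2.12. Among the other sterol genes, Lbr, a sterol C14 reductase of the nuclear envelope, fell by 1.37 with adenosine and 1.33 with AMP in batch 2, and its adenosine effect was lower in batch 2 than in batch 1 by 1.05 on the log2 scale (adjusted p = 0.00186). Mylip rose more in batch 2 than in batch 1, by 1.91 (adjusted p = 0.00381). Its DMSO level was low in both, 1.47 ± 0.526 scaled CPM in batch 2 and 4.52 ± 0.475 in batch 1. With adenosine it stood at 25.1 ± 5.83 and 20.8 ± 2.98, so in proportion the batches differed more at the DMSO level. Its mean passed 10 CPM only through the treated libraries. Icmt, which methylates prenylated proteins, rose by 1.00, 0.83 and 0.69 in the 3 comparisons with DMSO, while Fntb fell.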
